A study of Mus musculus with 6 samples.

Results

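The microRNAs (miRNAs) miR-216a, miR-216b and miR-217 come from neighbouring hairpins on mouse chromosome 11, and their array probes were followed in exosomes of mouse endothelial cells kept at high or normal inorganic phosphate. The members are all probes whose mouse name begins with mmu-miR-216a, mmu-miR-216b or mmu-miR-217, on either arm of the hairpin, and there were 6 of them among 1118 mouse miRNA probes. In full array notation they are mmu-miR-216a-3p, mmu-miR-216a-5p, mmu-miR-216b-3p, mmu-miR-216b-5p, mmu-miR-217-3p and mmu-miR-217-5p, and the species prefix is left out below. They were chosen by name, but the set was proposed with the differences of its members between the phosphate levels already known. Differences between the phosphate levels are therefore described here and not offered as a test of the cluster.

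Purchased mouse endothelial cells, which line blood vessels, were grown with 12% fetal bovine serum and exposed for 48 h to 3.5 mM (high) or 0.9 mM (normal) phosphate. Exosomes, small vesicles that cells release, were collected from the medium by differential centrifugation, and their RNA was labelled with the dye Hy3 and hybridised to 1-colour arrays. Each phosphate level had 3 arrays, and the labels used here do not say that they are separate cultures, so p-values measure the spread between these arrays, which may be technical. The study's subject is the calcification of arteries in patients whose kidneys have failed.

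The hairpin of a miRNA is cut into a -5p and a -3p arm, of which usually one is kept as the guide that pairs with target messages through its seed, bases 2 to 8, while the other is mostly degraded. For this cluster the -5p arms are the ones described as guides. The cluster is best known as abundant in the exocrine pancreas. In human endothelial cells miR-217 is known to accumulate with senescence and to act on the deacetylase SIRT1, and miR-216a is known to act on autophagy genes such as BECN1.

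The mature sequences, from RefSeq on build GRCm38.p6, are shown because the comparison is between the -3p and -5p arms. The seed is in capitals.
miR-216a-3p: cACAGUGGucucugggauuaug
miR-216a-5p: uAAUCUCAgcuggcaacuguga
miR-216b-3p: aCACUUACcuguagagauucuu
miR-216b-5p: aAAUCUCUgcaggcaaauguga
miR-217-3p: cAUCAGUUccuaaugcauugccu
miR-217-5p: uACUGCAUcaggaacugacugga
All 6 names matched a RefSeq entry. None of the 6 seeds stood at bases 2 to 8 of any of the other 1678 mature mouse miRNA names in that table. The bases of the miR-216a-3p seed do occur at another position in miR-27a-3p, miR-27b-3p and miR-3073b-5p. The -5p arms of miR-216a and miR-216b share the run AAUCUC within the seed, whereas the longest run shared by miR-216a-3p and miR-216b-3p was 4 bases.

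The hairpins of miR-216a and miR-217, whose -3p probes had normalized groups that stood apart, are shown with both mature arms in capitals, to place the arms within the precursor.
Mir216a: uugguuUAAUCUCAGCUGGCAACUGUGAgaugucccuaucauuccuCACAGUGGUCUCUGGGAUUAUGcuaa
Mir217: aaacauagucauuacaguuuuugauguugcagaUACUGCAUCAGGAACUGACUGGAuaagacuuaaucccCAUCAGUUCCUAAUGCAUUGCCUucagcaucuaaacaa
Mir216b lies at chr11:28746191-28746276, Mir216a at chr11:28757012-28757083 and Mir217 at chr11:28763728-28763835, all on the plus strand. The gap between Mir216b and Mir216a was 10735 bases and that between Mir216a and Mir217 was 6644 bases. In the annotation the long noncoding RNA gene Mir217hg (chr11:28730633-28751781) spans Mir216b, and the noncoding gene Gm40818 (28754078 to 28772168) spans Mir216a and Mir217. On the minus strand Mir216c overlaps Mir216b, and the array tables held 0 probes named for miR-216c.

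Every probe had 4 spots, and values below are foreground minus local background in scanner units, averaged over the spots and not scaled between arrays unless a log2 level is named. The 1132 empty spots give the level of a spot without a probe, not that of a probe without its target. Their 95th percentile was 2 or 3 units on every array, and the brightest empty spot lay between 3 and 9 units. The other yardstick is the 95th percentile of 57 probes for miRNAs of viruses, at 1627 to 3233 units. A probe that exceeded it on at least 3 of the 6 arrays entered the test, as 129 of 1118 mouse probes did. Of the cluster, only miR-216a-3p entered it. Probes bind their targets with different strength, so the level of one probe is not set against that of another.

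The 3 -3p probes stood clear of the empty spots and the -5p probes stood at or close to them. The brightest empty spot was exceeded on all 6 arrays by miR-216a-3p, miR-217-3p, miR-216b-3p and miR-216a-5p, on 4 arrays by miR-217-5p and on 0 arrays by miR-216b-5p. The viral threshold was exceeded on all 6 arrays by miR-216a-3p and on 0 arrays by each of the other 5. The signal of these 5 is therefore not told apart from that of probes for viral miRNAs.

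**Figure D1:**
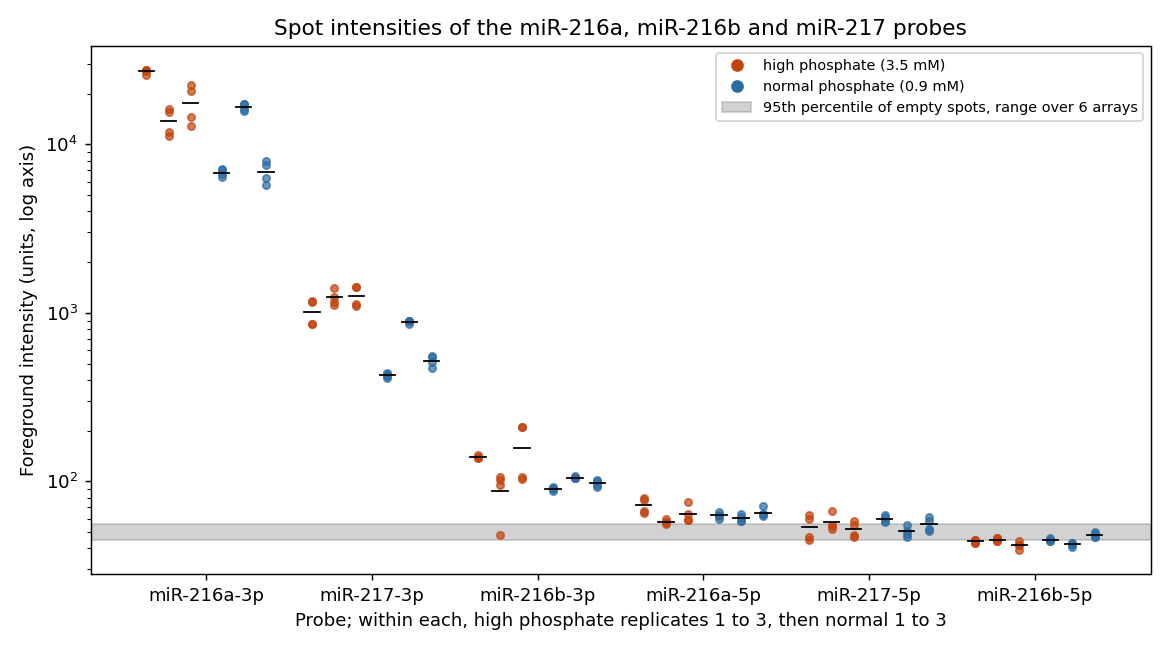
Foreground intensity of each of the 4 spots of the 6 probes on a log axis, without background subtraction, for high phosphate replicates 1 to 3 and then normal phosphate replicates 1 to 3; black lines are means and the grey band is the range over arrays of the 95th percentile of the empty spots. The -3p probes lie above the band, apart from 1 spot of miR-216b-3p, while the -5p probes lie in it or close to it.

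The only member above the viral threshold was miR-216a-3p, the arm opposite the guide miR-216a-5p. It measured 27075, 13644 and 17550 units on the high phosphate arrays, against 6751, 16645 and 6837 units on the normal phosphate arrays. The groups overlapped at this stage, because normal phosphate replicate 2 was brighter than high phosphate replicate 2. The means were 19423 ± 6909 units in high and 10078 ± 5688 units in normal phosphate (SD, n = 3 each).

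After normexp background correction and quantile normalization, the log2 level of miR-216a-3p was 14.80, 14.00 and 14.30 in high phosphate, against 12.62, 13.96 and 12.57 in normal phosphate. The groups then no longer overlapped, although high phosphate replicate 2 and normal phosphate replicate 2 lay close together. The log2 difference was 1.32 (SE 0.41), a 2.50-fold higher level in high phosphate with a 95% interval from 1.28 to 4.88. Ordered by log2 difference it held rank 2 of the 129 tested probes.

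The 4 spots of miR-216a-3p did not give 1 value on every array. Their coefficient of variation ran from 3.06% in high phosphate replicate 1 to 26.7% in high phosphate replicate 3. On each array 2 spots lie in blocks 1 to 18 and 2 in blocks 19 to 36, and the ratio of the first pair to the second was 1.03, 1.38 and 1.58 on the high phosphate arrays, against 0.919, 0.927 and 0.775 on the normal phosphate arrays. The median of that ratio over the 129 tested probes lay between 0.926 and 0.998 on the 6 arrays. For miR-216a-3p the ratio was above 1 on every high phosphate array and below 1 on every normal array. It lay farthest from the median in high phosphate replicates 2 and 3. The part of spot position in the difference was not tested.

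The size of the difference depended on which spots were read. From blocks 1 to 18 alone, with no scaling between arrays, the log2 difference of miR-216a-3p was 1.31, and from blocks 19 to 36 alone it was 0.72, a choice made after seeing the data. In blocks 19 to 36 the probe ran from 11456 to 26726 units in high and from 7036 to 17280 units in normal phosphate. In blocks 1 to 18 it ran from 15832 to 27423 units in high and from 5972 to 16010 units in normal phosphate. Both regions gave a higher mean in high phosphate, and in both the groups overlapped.

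**Figure D2:**
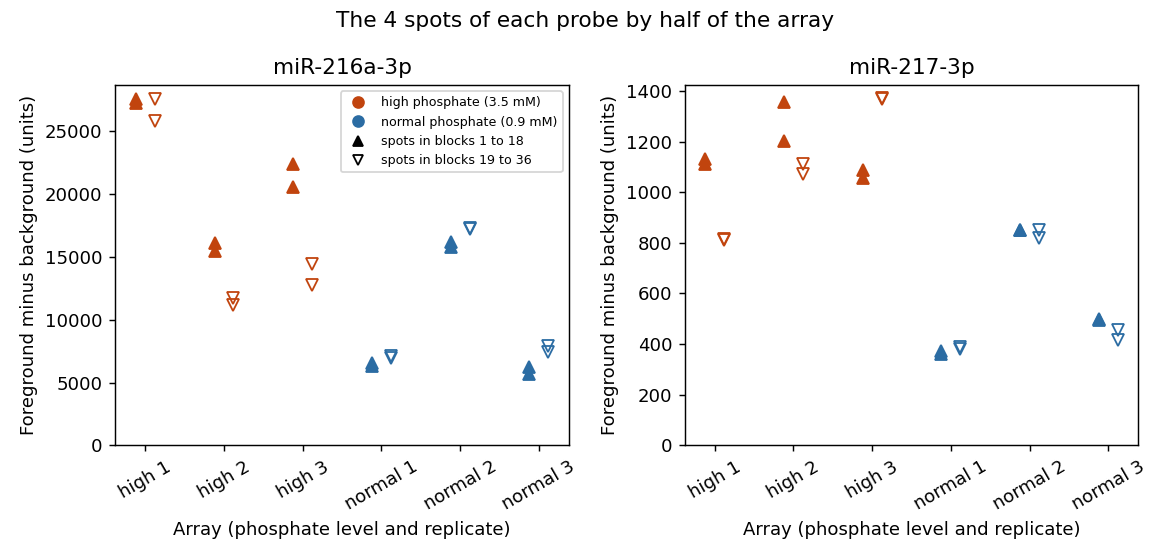
Foreground minus background of the 4 spots of miR-216a-3p (left) and miR-217-3p (right) on each array, with filled triangles for spots in blocks 1 to 18 and open triangles for spots in blocks 19 to 36. The regions differ most for miR-216a-3p in high phosphate replicates 2 and 3 and for miR-217-3p in all 3 high phosphate replicates, where blocks 1 to 18 are brighter in replicates 1 and 2 and dimmer in replicate 3.

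The arm opposite the guide of miR-217, miR-217-3p, lay above every empty spot and below the viral threshold on all 6 arrays. It measured 966, 1185 and 1221 units in high phosphate, against 376, 843 and 466 units in normal phosphate. The groups did not overlap, and normal phosphate replicate 2 was again the brightest normal array. The means were 1124 ± 138 units in high and 562 ± 248 units in normal phosphate (SD, n = 3 each).

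Normalized log2 levels of miR-217-3p were 10.07, 10.31 and 10.28 in high phosphate, against 8.85, 9.82 and 9.03 in normal phosphate. The groups stood apart, with normal phosphate replicate 2 nearest to the high phosphate arrays. The log2 difference was 0.99 (SE 0.28) in the fit over all 1118 mouse probes, a 1.98-fold higher level with a 95% interval from 1.22 to 3.23. Without scaling, the spots of blocks 1 to 18 gave 1.10 and those of blocks 19 to 36 gave 1.04. In blocks 19 to 36 the groups overlapped, at 812.5 to 1371.5 units in high and 384.5 to 836 units in normal phosphate, and in blocks 1 to 18 they did not.

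The third -3p probe, miR-216b-3p, was dim. It measured 95.75, 39 and 114.5 units in high phosphate, against 44.25, 63.25 and 45.5 units in normal phosphate. The groups overlapped, since high phosphate replicate 2 was the lowest array of all, where 1 of its 4 spots read 2 units and the highest read 56 units. In high phosphate replicate 3 the spots ran from 60 to 168 units. The log2 difference after normalization was 0.20 (SE 0.16), with a 95% interval from -0.20 to 0.61.

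The guide arm miR-216a-5p, which carries the known activity on autophagy genes, measured 29.25, 9.75 and 21.75 units in high phosphate, against 16.25, 18.25 and 12.75 units in normal phosphate. High phosphate held both the highest and the lowest array, and the log2 difference was -0.04 (SE 0.06).

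The guide arm miR-217-5p, known from endothelial senescence, measured 8.75, 6.75 and 7.5 units in high phosphate, against 10.5, 6.25 and 0.5 units in normal phosphate. All 3 high phosphate values lay between those of normal phosphate replicates 1 and 2, and the log2 difference was -0.02 (SE 0.07).

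The guide arm miR-216b-5p stayed within 4 units of zero on every array, from -1.5 to 1.5 units in high and from -4 to 0.75 units in normal phosphate. Its log2 difference of -0.0006 (SE 0.04) describes background. For these 3 arms the offset of 50 units added in normexp draws differences toward 0, so the small SE does not show that the miRNAs were at the same level. A difference in the -5p arms was not detectable at this signal.

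Only miR-216a-3p and miR-217-3p had normalized groups that stood apart, while miR-216b-3p and the -5p probes overlapped. All 3 -3p probes had a higher mean in high phosphate, both in units and after normalization. For miR-216b-3p that difference lay within the spread between arrays. The -5p probes had slightly higher unit means in high phosphate, at 20.2 against 15.8 units in normal phosphate for miR-216a-5p, 7.67 against 5.75 units for miR-217-5p and 0.17 against -2.17 units for miR-216b-5p, each within the spread between arrays. After normalization their log2 differences lay between -0.04 and -0.0006, and with scaling to the Hy3 spots between 0.35 and 0.46, while that scaling moved the median of all mouse probes to 0.48. Over the whole array 240 of 475 -3p probes (50.5%) and 227 of 470 -5p probes (48.3%) had a higher normalized mean, with median log2 differences of 0.003 and -0.004.

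The -3p minus -5p log2 level of each hairpin was also followed from array to array, as its deviation from the mean over the 6 arrays. For miR-216a the deviations were 1.04, 0.41 and 0.60 in high phosphate, against -1.13, 0.25 and -1.17 in normal phosphate, a change of 1.36. For miR-217 they were 0.36, 0.58 and 0.57 in high phosphate, against -1.0, 0.13 and -0.64 in normal phosphate, a change of 1.01. On these normalized levels neither overlapped between the groups, while miR-216b overlapped with a change of 0.20. For miR-216a the nearest deviations were 0.41 and 0.25, and the units of miR-216a-3p on those arrays overlapped before normalization. The log2 levels of the -5p probes spanned only 6.05 to 6.48 on the 6 arrays, near the floor that the offset sets, so these changes restate the differences of the -3p probes and do not measure a change between arms.

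Having 1 arm over the viral threshold was the usual state of a hairpin with any signal there: of 402 hairpins, 30 exceeded it with the -3p arm alone, 54 with the -5p arm alone and 4 with both. The hairpin of miR-216a belonged to the 30, and those of miR-216b and miR-217 to the 314 with neither arm above it. The brightest empty spot was exceeded on all 6 arrays by the -3p arm alone in 64 hairpins (15.9%), miR-216b and miR-217 among them. Both arms exceeded it in 233 hairpins (58.0%), miR-216a among them.

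Measured by calls, none of the cluster passed. In limma, 0 of the 129 tested probes (0%) passed after Benjamini-Hochberg adjustment, 9 had an unadjusted p under 0.05, and miR-216a-3p was among these 9. Normalized groups stood apart, with high phosphate above, for 2 of the 6 probes, miR-216a-3p and miR-217-3p, against 3.94% of all mouse probes (44 of 1118). Before scaling they stood apart for miR-217-3p alone, against 5.28% (59 of 1118). These counts rest on the contrast that was known when the cluster was proposed.

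**Figure D3:**
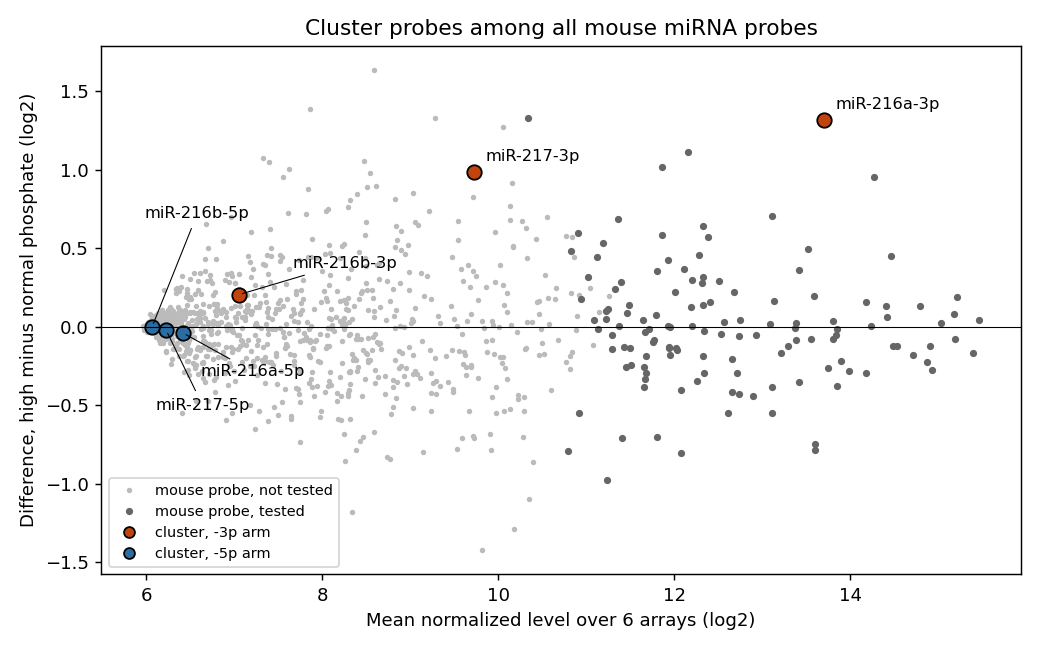
Log2 difference (high minus normal phosphate) of all mouse miRNA probes against their mean normalized log2 level over the 6 arrays, with tested probes in dark grey, the cluster's -3p arms in orange and its -5p arms in blue. miR-216a-3p at 1.32 and miR-217-3p at 0.99 lie near the upper edge, and the 3 -5p probes lie at the left end near 0.

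The scaling decided whether a call was made. The Hy3 spots and the spike controls were dimmer on the high phosphate arrays: the mean log2 level of the spike controls was 8.62 to 9.06 in high and 9.40 to 9.53 in normal phosphate. Scaled to the Hy3 spots, miR-216a-3p stood at 1.71 (SE 0.36) and passed with limma after adjustment, as did 5.43% of the tested probes in the same direction. Scaled to them without the filter, miR-217-3p stood at 1.66 and passed, as did 16.3% of all mouse probes, and in that fit every probe had the same SE of 0.32. Scaled to the spike controls without the filter, miR-217-3p stood at 1.56 and passed, as did 4.38% of all mouse probes. In that fit, too, every probe had the same SE, of 0.37. The part of the control spots' brightness in these calls was not tested.

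In the authors' deposited table, which compares high with normal phosphate on their normalized intensities, miR-217-3p had a fold of 1.98 with p = 0.0203, and it was 1 of 23 probes (2.24% of 1029) higher in high phosphate with a p under 0.05. The authors' deposited table gave a false discovery rate of 0.794 for it. For miR-216a-3p the authors' deposited table had a fold of 1.97 with p = 0.16, and for miR-216b-3p a fold of 1.72 with p = 0.152. Of the -5p arms, miR-216a-5p had a fold of 1.31, miR-216b-5p of 1.30 and miR-217-5p of 0.828 in the authors' deposited table.

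**Figure D4:**
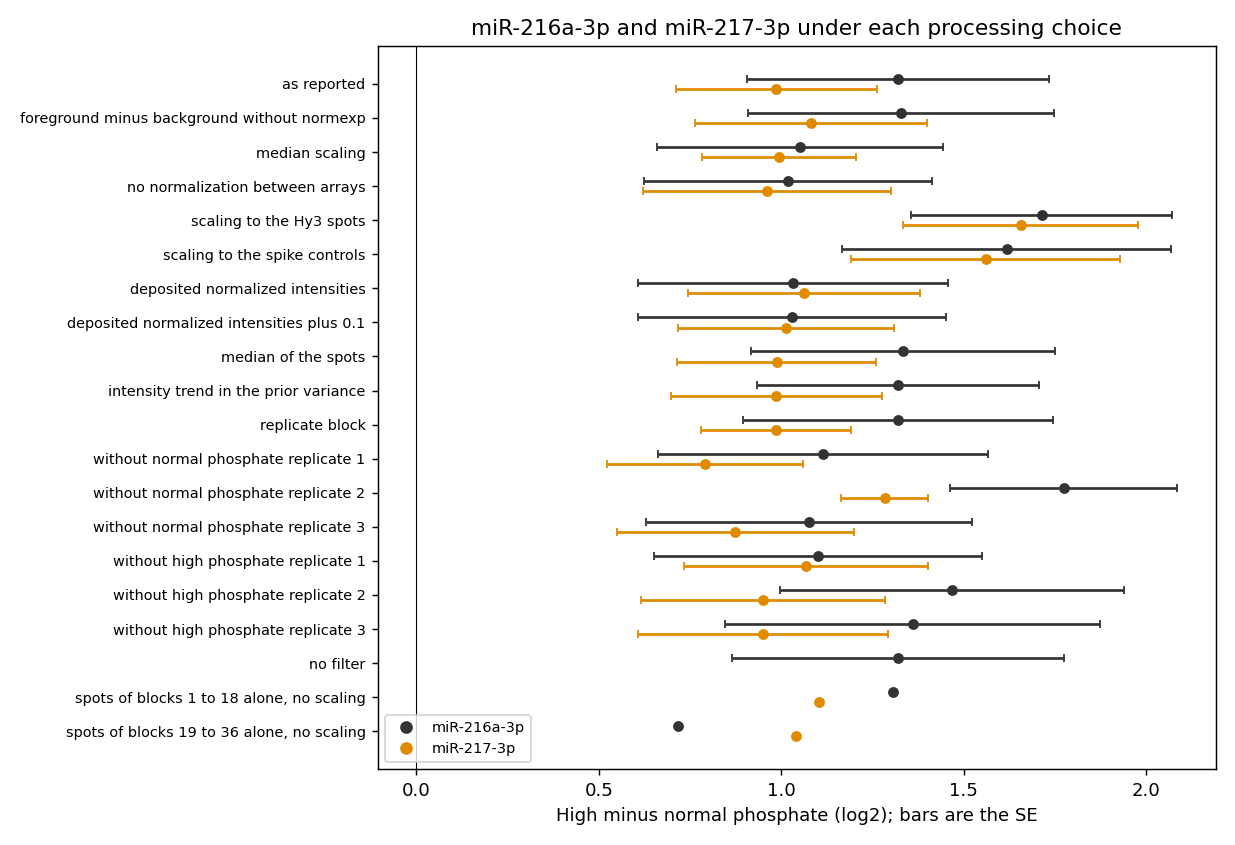
Log2 difference (high minus normal phosphate) of miR-216a-3p (black) and miR-217-3p (orange) under each processing choice, with bars for the SE where a model was fitted. All points lie above 0, from 0.72 to 1.77 for miR-216a-3p and from 0.79 to 1.66 for miR-217-3p.

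The array profile of miR-217-3p was among those most like that of miR-216a-3p. Likeness was measured as the Euclidean distance between log2 levels over the 6 arrays after subtracting each probe's mean, so a smaller distance is a closer profile. miR-217-3p stood at 0.96, rank 7 of 1117 other mouse probes, although it was below the viral threshold. The distance includes the difference between the phosphate levels, which was known when the cluster was proposed. Likeness is therefore described and not offered as a test of the cluster. miR-216b-3p stood at 1.79, rank 142. The -5p probes were nearly flat near the floor, so their distances do not describe likeness. The median distance of the other 128 tested probes was 2.22.

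The 3 tested probes with the closest profile were miR-1957a at a distance of 0.98, miR-344d-3-5p at 1.00 and miR-22-5p at 1.27. miR-1957a measured 27801, 20130 and 23266 units in high phosphate, against 14045, 18049 and 13727 units in normal phosphate, without overlap. miR-344d-3-5p measured 9726, 3362 and 6992 units in high phosphate, against 2425, 4671 and 2586 units in normal phosphate. miR-22-5p measured 32919, 23402 and 17910 units in high phosphate, against 14970, 27488 and 20445 units in normal phosphate. In all 3 the highest normal value was that of replicate 2, a feature that their choice by likeness to miR-216a-3p favours.

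**Figure D5:**
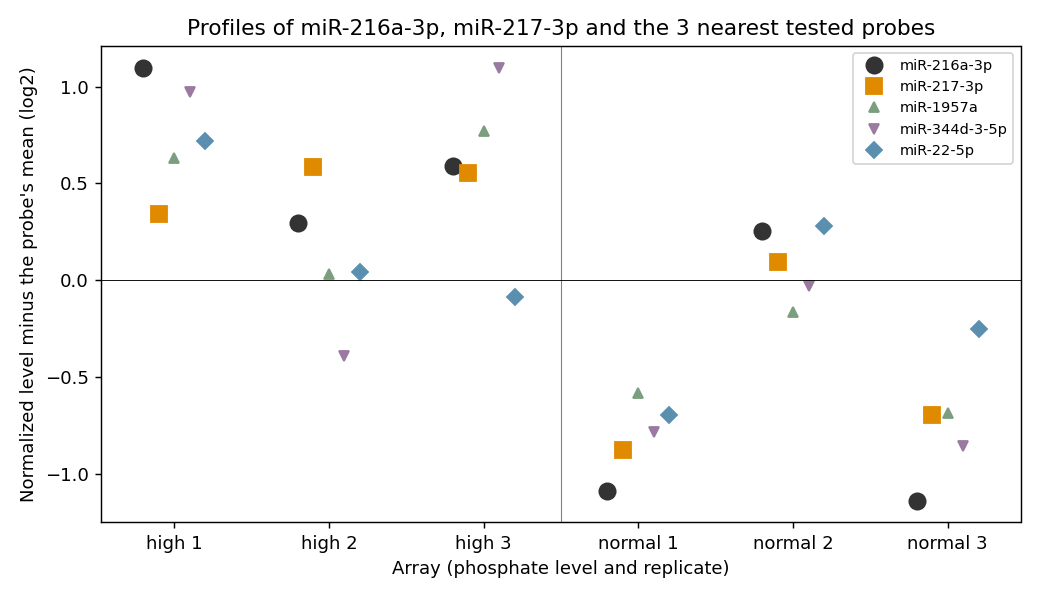
Normalized log2 level of miR-216a-3p, miR-217-3p and the 3 tested probes with the closest profile on each array, each minus its own mean over the 6 arrays. Normal phosphate replicate 2 is the highest normal array for all 5, and miR-217-3p varies least among the high phosphate arrays.

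Sequence shared with other miRNAs was examined because a probe can also bind a partly matching miRNA. The longest run that miR-216a-3p shares with another mouse miRNA on the array is 8 bases, in 8 miRNAs. One such run, CACAGUGG from its base 1, also stands in miR-27a-3p and miR-27b-3p, known from endothelial cells, whose log2 differences were -0.29 (SE 0.28) and -0.03 (SE 0.31). The longest run of miR-217-3p, 9 bases from its base 6, is shared with miR-450a-5p, which measured 31 to 110 units in high and 94 to 161.5 units in normal phosphate. Cross-binding itself was not tested.

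Other miRNAs of the cluster's known settings showed no common course. Of 8 miRNAs linked to senescence of endothelium, all on the array, 4 were tested, 0 passed limma after adjustment, 1 had a higher and 3 a lower mean, and the median was -0.19, against -0.02 over all tested probes. The values were 0.36 (SE 0.25) for miR-21a-5p, -0.08 (SE 0.27) for miR-22-3p, -0.30 (SE 0.26) for the endothelial miR-126a-3p and -0.34 (SE 0.33) for miR-146a-5p, which restrains NF-kB signalling. The p53 target miR-34a-5p was below the viral threshold on all arrays, at 131 to 178 units in high and 150 to 230 units in normal phosphate.

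Of 9 miRNAs known from pancreas, all on the array, 2 were tested and 0 passed. Both had a higher mean in high phosphate, with a median of 0.22. These were miR-148a-3p, abundant in acinar cells, at 0.37 (SE 0.30) and miR-141-3p of the epithelial miR-200 family at 0.07 (SE 0.19). The islet miRNA miR-375-3p was below the viral threshold on all arrays, at 176 to 205 units in high and 206 to 322 units in normal phosphate. Among the untested members of this list only miR-200b-3p had a higher normalized mean in high phosphate, at 0.18 (SE 0.05).

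Markers of the labelled cell type and of other sources gave signal together. The endothelial miR-126a-3p and miR-126a-5p exceeded the viral threshold on all 6 arrays. So did miR-143-3p of smooth muscle, miR-451a and miR-144-3p of red cells, miR-122-5p of liver and miR-1a-3p and miR-206-3p of striated muscle. In contrast, miR-133a-3p of striated muscle and the leukocyte markers miR-223-3p, miR-142a-3p and miR-150-5p did so on 0 arrays. The other smooth muscle marker, miR-145a-5p, had no probe of its own, and the probe it shares with miR-145b did not enter the test. Fewer vesicles of a source and less of a miRNA per vesicle cannot be told apart in these arrays, and the part of other sources, the serum included, in the signal of the cluster was not tested.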

How the data were processed

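Small RNA of exosomes was measured on 6 arrays, 3 at high and 3 at normal phosphate. The authors deposited spot intensities as foreground and as foreground minus background, per the file headers, for 15840 spots; no scanner or image software is named in them. Their deposited normalized intensities equalled the median spot value of a probe divided by 1 factor per array, between 319 and 344.5 units, found by setting them against the spots. The series' value table held the same numbers, with column medians from 0.307 to 0.403, is uncentred and runs in the direction of intensity. The authors' deposited table also gives a fold change (a ratio of high over normal phosphate) with its p-value and false discovery rate per probe. The 18 per-sample columns of that table were not used.

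With limma 3.58.1 (R 4.3.3), spots underwent normexp correction with an offset of 50, then were averaged by probe, quantile normalized over mouse and viral miRNA probes and taken to log2. Probes over the 95th percentile of viral probes on at least 3 arrays were fitted with limma, high minus normal, 2-sided, with Benjamini-Hochberg adjustment at 0.05. Members below that threshold take their values from the same fit over all 1118 mouse probes. The fit was run on simulated data with independent noise as a check of the code, and no result here rests on it. Members, lists and tests were chosen with earlier results of these data known; named probes are the members, every tested member of the senescence and pancreas lists, miRNAs sharing a member's seed (none found) and the 3 tested probes with the closest profile. With 3 arrays per group precision is limited, and a 95% interval typically reached 0.61 (the median over the tested probes) above and below the log2 difference. Slides and scans could not be tested as batches, as the labels and headers name none. Alternatives covered background correction, scaling, the deposited values, the filter, spot averaging, the variance model, left-out arrays and a replicate block. Probe names were kept as deposited.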

Additional observations from a re-analysis of the deposited data

How the results depend on the processing

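miR-216a-3p kept a higher mean in high phosphate under all 19 alternatives and miR-217-3p under all 18. Of the 129 tested probes, the count passing limma was 0 as reported and 0 under all alternatives but scaling to the Hy3 spots, which gave 7, with 36 at an unadjusted p under 0.05, against 9 as reported. That scaling raised miR-216a-3p to 1.71 and past the threshold (limma adjusted p = 0.0131, against 0.0686 to 0.973 under its other alternatives and 0.453 as reported). Without the filter on dim probes, scaling to the Hy3 spots and to the spike controls let 182 and 49 of 1118 probes pass with a higher level in high phosphate. miR-217-3p was among them (limma adjusted p = 2.77e-05 and 0.00235; 0.0907 to 1.00 under its other alternatives). Leaving out each array in turn gave 1.08 to 1.77 for miR-216a-3p and 0.79 to 1.28 for miR-217-3p, the highest of each without normal phosphate replicate 2. The -3p minus -5p change ran from 1.11 to 1.83 for miR-216a and from 0.76 to 1.33 for miR-217 when each array was left out. With the deposited intensities it was 0.77 for miR-216a, and 0.91 with 0.1 added to every value. For miR-217 it was 0.44 without normexp and 2.04 with the deposited intensities, where 0.1 replaced a missing value of miR-217-5p and lay above its measured dim values; with 0.1 added to every value, a form chosen after seeing the data, it moved by less than the spread between replicates. The 3 -5p probes changed direction with the scaling, and the cause was not tested. The labels do not say whether same-numbered replicates are paired, and 3 arrays per group are too few to settle it. The correlations of same-numbered arrays' deviations were 0.22, 0.03 and -0.18. A replicate block left 0 probes passing and miR-216a-3p at 1.32.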
